A study of Mus musculus with 16 samples.

Results

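The cells described here are the committed-lineage cells of lineage-depleted bone marrow from mice given IL1β, compared between Tet2-KO and WT animals. A cell was kept when it had at least 750 genes detected and at most 10% of its UMIs (unique molecular identifiers, that is, counted RNA molecules) from mitochondria. It was then tied to a mouse by its hashtag antibody and placed in a lineage by its highest-scoring list of marker genes. This gave 12269 cells in 7 lineages, 5676 from Tet2-KO and 6593 from WT mice, out of 48765 cells of the IL1β libraries and 94917 cells of the whole series within the same limits. They were 3483 basophil, 2589 monocyte, 2060 erythroid, 1720 neutrophil, 1166 lymphoid, 930 megakaryocyte and 321 dendritic (DC) cells.

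All animals were C57BL/6 mice, labelled as 6 to 12 weeks old. WT mice carried Tet2 fl/fl alleles without Cre, and KO mice were Vav-Cre Tet2 fl/fl, so Cre itself was present only in the KO groups. Vav-Cre acts throughout blood-forming cells, so no lineage of the KO mice is a Tet2-intact control. Mice received 500 ng of IL1β per mouse per day into the peritoneum, or vehicle, for 5 weeks, with 4 mice in each of the 4 groups. Marrow of 2 mice with the same genotype and treatment was pooled in a library after hashtag staining. Depletion removes most mature cells, so the values below are those of the mature and committed cells that remained, and a change in the RNA of each cell cannot be told apart from a change in which cells of a lineage were captured. The question addressed is how these lineages differ between genotypes under chronic IL1β.

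TET2 oxidises 5-methylcytosine and thereby opens a path to the removal of DNA methylation at CpG dinucleotides, above all at enhancers used in differentiation. IL1β is a cytokine of the inflammasome that acts through IL1R1 and NF-kB and, when chronic, drives marrow output towards myeloid cells. Neutrophils and monocytes are the main products of that output, basophils are rare granulocytes of allergic and type 2 responses, megakaryocytes shed platelets, and erythroid cells make haemoglobin.

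Each of the 8 IL1β mice gave between 11 and 715 cells and between 68281 and 5619772 UMIs to a lineage, and the DC sums were the shallowest. Of the 48765 cells, 62.34% carried a single hashtag, 33.15% had no call and 4.51% carried both and were removed. Erythroid cells were called least often, with 22.9% of WT and 34.3% of KO cells assigned to a mouse, against 56.2% to 85.3% in the other lineages. KO cells were assigned more often than WT cells in each lineage, as in basophils (76.4% against 56.2%) and monocytes (83.5% against 67.1%). The median assigned monocyte held 6773 UMIs in KO and 4848 in WT mice, and the median neutrophil 3594 and 4384. KO medians were the lower ones in neutrophils and lymphoid cells only. The part of depth in the genes called was not tested. Pairs of the 8 libraries shared between 11 and 57 cell barcodes. Of the cells assigned to WT mouse 3, 55.7% held Y-linked transcripts and 21.5% held Xist. Xist was present in 98.5% of the cells of its pool partner, WT mouse 4. Some cells of WT mouse 4 may thus have been assigned to WT mouse 3, so these mice may not be fully separate replicates. Counts of calls without single mice are given below. The gates were checked over the cells of all 8 libraries, with vehicle mice and cells without a hashtag call included. Markers kept out of the gating were higher inside than outside the gate for 10 of 10 in neutrophils, monocytes and megakaryocytes, 9 of 9 in basophils, 13 of 13 in erythroid cells, 15 of 17 in DC and 22 of 22 in lymphoid cells. Over the same cells the monocyte and erythroid gates were the least sharp, with 20.94% and 20.01% of their cells near the score at which a cell was placed.

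Counts from the 3′ end need not cover the deleted exons, so Tet2 mRNA is no check of the genotype. In neutrophils the WT mice had 38.3, 35.6, 42.7 and 45.4 CPM (the usual depth-scaled count unit, here a gene's summed UMIs over the TMM-scaled library size of the mouse) and the KO mice 48.6, 49.5, 44.2 and 54.9. The groups overlapped there and in the other 6 lineages, and the log2 fold change of KO over WT ran from 0.03 in erythroid cells to 0.40 in DC, with none past the edgeR threshold. Throughout, a gene is called changed at an edgeR quasi-likelihood adjusted p under 0.05 over all genes tested in its lineage. The mice were the replicates, 4 a group unless a mouse had fewer than 10 cells in the gate. Among vehicle mice this left out WT mouse 2 in DC and in natural killer (NK) and T cells, so vehicle folds there rest on fewer mice. KO vehicle mouse 4 only just reached the limit in neutrophils, with 10 cells and 61565 UMIs.

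Commd10, a member of the COMMD family of endosomal sorting adaptors (chr18:46958816-47234284, plus strand, mm10), was the gene called in the largest number of lineages. It rose in basophils, monocytes, neutrophils and lymphoid cells of KO mice. Because the Vav-Cre transgene was present only in KO mice, the part of the transgene in this rise cannot be told apart from that of Tet2 loss. The rise is therefore not shown to follow from Tet2 loss. In basophils Commd10 read 10.8, 8.02, 8.51 and 7.33 CPM in the WT mice and 46.4, 75.2, 63.9 and 59.4 CPM in the KO mice. Every KO mouse lay above every WT mouse, with a log2 fold change of 2.82 ± 0.18 (SE, n = 4 mice a group, edgeR adjusted p = 5.75e-10). Monocytes held 14.6, 13.9, 14.1 and 5.25 CPM in WT and 43.3, 54.7, 55.5 and 51.8 CPM in KO mice (1.97 ± 0.17, edgeR adjusted p = 3.71e-07). Neutrophils held 6.53, 6.33, 7.25 and 5.34 CPM in WT and 34.2, 23.9, 25.1 and 14.02 CPM in KO mice (1.83 ± 0.30, edgeR adjusted p = 0.0157). In both cell types the groups were again apart.

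In lymphoid cells Commd10 had 6.65, 0, 7.57 and 9.32 CPM in WT against 22.1, 30.0, 18.4 and 13.7 CPM in KO mice (log2 fold change 1.71 ± 0.41, edgeR adjusted p = 0.0244). DC values were 21.3, 29.5, 16.0 and 0 CPM in WT and 66.4, 39.7, 92.6 and 58.1 CPM in KO mice, apart but not past the threshold (1.81 ± 0.49, edgeR adjusted p = 0.493). Erythroid cells (1.04 ± 0.21, edgeR adjusted p = 0.109) and megakaryocytes (0.46 ± 0.30, edgeR adjusted p = 0.991) had overlapping mice. A difference was also called in the separate vehicle mice, where the log2 fold change was 3.16 in basophils, 2.60 in neutrophils, 2.58 in DC and 1.79 in monocytes. The test of the difference between the IL1β and the vehicle fold gave an edgeR adjusted p of 0.962 in basophils, 0.900 in neutrophils and 1.00 in monocytes. In basophils and monocytes the call held under all 18 alternatives. Commd10 had a value in 17 alternatives in neutrophils and in 14 in lymphoid cells. The neutrophil call was lost without KO mouse 3, without WT mouse 1 and with pools as replicates. The lymphoid call was lost without KO mouse 1 or 2, without WT mouse 1 and with pools as replicates. Cd84, Fyb, Odc1 and St3gal5 were each called in 2 lineages, and no gene besides Commd10 was called in 3 or more.

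**Figure D1:**
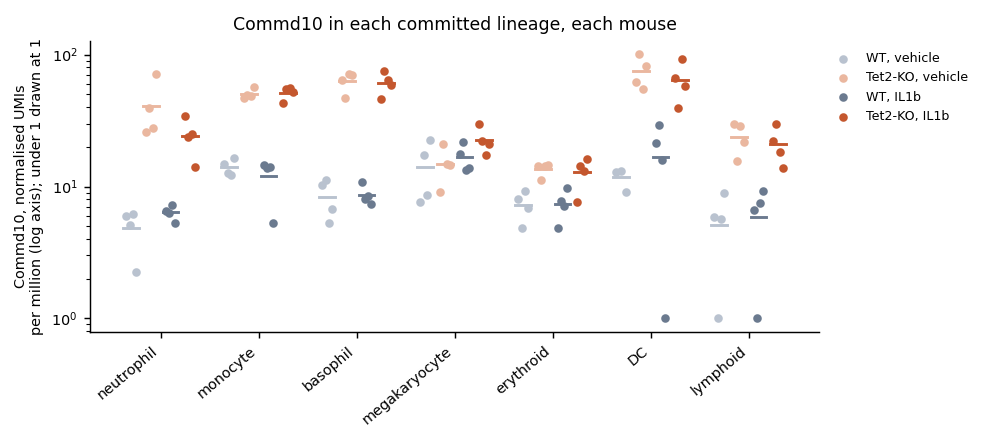
Commd10 in CPM on a log axis for each mouse (points, with values under 1 drawn at 1) and the group mean (bars) in the 7 committed lineages, with the vehicle groups in paler colours. With IL1β, KO mice lay above WT mice except in megakaryocytes and erythroid cells, where the groups overlapped, and the 3 myeloid lineages with the strongest calls read 5.25 to 14.6 CPM in WT and 14.02 to 75.2 CPM in KO mice.

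Of 7378 genes tested, 8 rose and 1 fell in KO neutrophils (0.122% of genes tested called), and 985 had an unadjusted p under 0.05. Besides Commd10, the genes that rose were Retnlg (a secreted resistin-like protein of mature neutrophils), Mxd1 (a repressor that competes with MYC for MAX), Plbd1 (a phospholipase B-like granule protein), Asprv1 (an aspartic protease), Tesc (a calcium-binding protein), Fyb (the adaptor ADAP, which couples receptors to integrins) and Ifi27l2a (an interferon-induced gene).

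Retnlg was by far the most abundant of them, with 3260, 3097, 2573 and 2498 CPM in WT and 6260, 8045, 5851 and 4854 CPM in KO mice. Its log2 fold change was 1.13 ± 0.21 (edgeR adjusted p = 0.0276, n = 4 mice a group). Mxd1 read 171.8, 175.0, 115.9 and 96.1 CPM in WT and 228.5, 307.6, 262.1 and 295.6 CPM in KO mice (0.94 ± 0.18, edgeR adjusted p = 0.0345). The lowest KO mouse of both genes lay above the highest WT mouse. Plbd1 followed with 136.3, 187.6, 119.2 and 96.1 CPM in WT and 250.1, 293.7, 267.2 and 280.4 CPM in KO mice (0.99 ± 0.19, edgeR adjusted p = 0.0345). Asprv1 had 37.8, 39.6, 26.6 and 5.34 CPM in WT and 68.4, 76.2, 122.5 and 104.0 CPM in KO mice (1.56 ± 0.27, edgeR adjusted p = 0.0157). For each of the 8 genes that rose the mice did not overlap, which was so for 6.99% of all genes tested in neutrophils.

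Ifi27l2a had the largest fold, from 7.001, 16.6, 6.44 and 18.7 CPM in WT to 25.2, 32.3, 42.2 and 108.7 CPM in KO mice (2.29 ± 0.47, edgeR adjusted p = 0.0472), with KO mouse 4 far above the rest. Tesc was low in WT, at 5.13, 4.75, 1.61 and 0 CPM, and read 16.2, 16.7, 19.1 and 12.9 CPM in KO mice (2.10 ± 0.41, edgeR adjusted p = 0.0366). Fyb rose from 56.0, 72.05, 53.9 and 64.05 CPM to 82.8, 115.2, 97.4 and 111.0 CPM (0.76 ± 0.15, edgeR adjusted p = 0.0472). In the vehicle mice the fold of Asprv1 was 1.54, of Tesc 1.57 and of Fyb 0.65, while that of Retnlg was 0.35, of Mxd1 0.34 and of Plbd1 0.03, none called. The test of the difference between treatments gave an edgeR adjusted p of 0.857 for each of Plbd1, Retnlg and Mxd1.

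Asprv1 and Mxd1, which both rose, lie 17.3 kb apart on chromosome 6 (86628164-86629710, plus strand, and 86647042-86669161, minus strand, mm10). Their start regions, with that of Retnlg (chr16:48872621-48874496, plus strand), are shown because TET2 acts on CpG dinucleotides, which are in capitals. Each is the 300 bases from 250 before to 50 after the RefSeq start in GRCm38.p6, written along the gene's strand, at chr6:86627924-86628223, chr16:48872358-48872657 and chr6:86669110-86669409.
Asprv1: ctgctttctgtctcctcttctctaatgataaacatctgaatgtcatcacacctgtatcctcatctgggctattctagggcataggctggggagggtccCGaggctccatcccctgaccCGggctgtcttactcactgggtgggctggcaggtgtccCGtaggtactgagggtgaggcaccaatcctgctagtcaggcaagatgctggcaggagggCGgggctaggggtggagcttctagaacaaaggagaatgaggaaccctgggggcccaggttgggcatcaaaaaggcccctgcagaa
Retnlg: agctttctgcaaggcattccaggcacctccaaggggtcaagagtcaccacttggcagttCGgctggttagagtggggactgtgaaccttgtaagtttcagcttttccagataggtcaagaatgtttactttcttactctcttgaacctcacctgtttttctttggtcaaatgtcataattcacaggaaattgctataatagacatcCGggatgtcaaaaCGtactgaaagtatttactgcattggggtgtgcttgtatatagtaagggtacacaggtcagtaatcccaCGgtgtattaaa
Mxd1: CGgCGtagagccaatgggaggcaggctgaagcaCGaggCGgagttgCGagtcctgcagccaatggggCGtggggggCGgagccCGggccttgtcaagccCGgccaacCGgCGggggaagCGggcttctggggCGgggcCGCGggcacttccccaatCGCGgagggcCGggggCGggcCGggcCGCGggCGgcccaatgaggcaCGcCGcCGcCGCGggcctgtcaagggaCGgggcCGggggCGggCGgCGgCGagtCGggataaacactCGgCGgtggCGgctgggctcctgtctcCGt
Asprv1 and Retnlg held 4 CpG each and Mxd1 39, against a median of 7 over 32851 promoters of the same length. Of the other neutrophil genes, Fyb held 6, Plbd1 13 and Tesc 36, so the genes that rose ranged from CpG-poor to CpG-dense starts. No methylation was measured in these cells.

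Of the 12 genes for secondary and later neutrophil granules (the proteins packed as neutrophils mature, 7 of them also used to gate neutrophils), all 12 had a fold above 0, 8 had an unadjusted p under 0.05 and 1, Retnlg, was called. With the mixture rule for hashtags, which assigned more cells, 5 of the 12 were called higher, among them Mmp9 and Mmp8 (edgeR adjusted p = 0.0258 for both) and Ltf (edgeR adjusted p = 0.033). The median log2 fold of the 12 was 0.646 without that rule, against -0.0074 over all genes, of which 49.0% lay above 0. Mmp9, which cleaves gelatin, was 508.8, 602.5, 362.3 and 363.0 CPM in WT and 698.1, 1114, 937.0 and 941.8 CPM in KO mice (1.00 ± 0.25, edgeR adjusted p = 0.0692), and the collagenase Mmp8 had a fold of 0.99 (edgeR adjusted p = 0.0765). Camp was lowest at 0.15, and the lactoferrin gene Ltf had 0.70. Of the 8 primary granule genes 7 lay above 0 with a median of 0.196 and none called, among them Elane at 0.28 and Fcnb at 0.48. Of this list 7 genes, Elane and Fcnb among them, were markers of the granulocyte progenitor list that competed for cells. Close to the threshold, at edgeR adjusted p = 0.0601, stood the neutrophil antigen Ly6g (1.078), the stefin Stfa2l1 (1.73) and the inhibitory lectin Cd33 (0.76), all chosen after their values were seen. Of 20 genes of G2M and mitosis 4 lay above 0, with a median of -0.096. Survival genes showed no call, with Mcl1 at 0.41 and Bcl2 at -0.49. Of 17 AP-1 and immediate early genes 14 lay above 0, with a median of 0.393, 4 at an unadjusted p under 0.05 and none called. For the same list megakaryocytes had 10 of 15 above 0, lymphoid cells 8 of 17, basophils 5 of 19 and DC 3 of 16.

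Of the genes lower in KO neutrophils, Pf4, a platelet chemokine and a marker of the megakaryocyte gate, was the 1 called, at 384.6, 205.9, 29.8 and 72.1 CPM in WT and 10.8, 44.0, 18.1 and 3.51 CPM in KO mice, which overlapped (-3.01 ± 0.62, edgeR adjusted p = 0.0472). Cd69, an early activation antigen, had the smallest p among the rest, at 132.1, 125.1, 153.8 and 106.8 CPM in WT and 79.2, 87.9, 76.3 and 63.1 CPM in KO mice without passing (-0.77 ± 0.18, edgeR adjusted p = 0.0645). Its vehicle fold was 0.90, and the test of the difference between treatments gave an unadjusted edgeR p of 2.27e-05. Some markers of other lineages read lower within the neutrophil gate of KO mice. The summed basophil markers ran from 912 to 1749 CPM in WT and from 77.1 to 821 CPM in KO mice, the erythroblast markers from 282 to 2056 and from 113 to 457 CPM, and the megakaryocyte markers from 83.4 to 443 and from 18.5 to 67.8 CPM, with the erythroblast groups overlapping, while the gate's own markers ran from 30740 to 69830 CPM in WT and from 54540 to 62040 CPM in KO mice. Of 9 Ly6c-high monocyte genes (3 of the list are gate markers) 6 lay above 0 in neutrophils, with a median of 0.521 and 5 at an unadjusted p under 0.05. The part of these in the result was not tested. The number of calls moved widely with the cells used: it was 273 without WT mouse 2, 4 without KO mouse 2 or KO mouse 4, 3 without WT mouse 4, 2 without WT mouse 3 and 0 without WT mouse 1 or KO mouse 3, and 171 (2.19% of genes tested) with a mixture rule for hashtags that assigned more cells, which included all 9 genes above.

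**Figure D2:**
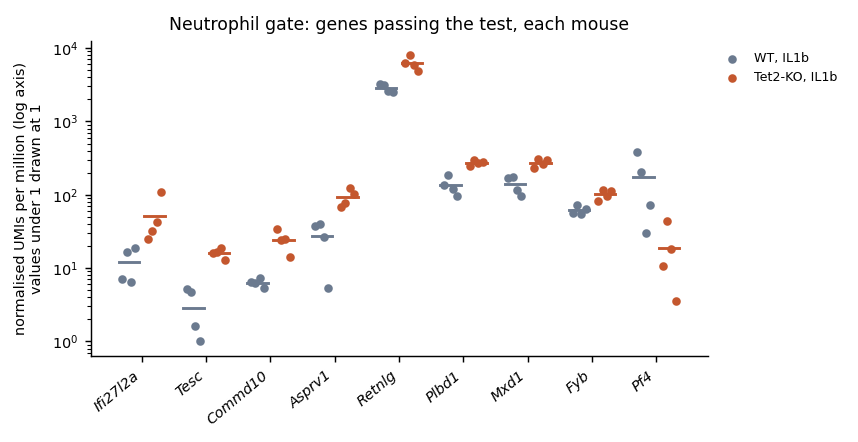
Genes called in neutrophils of IL1β mice, in CPM on a log axis for each WT and KO mouse (points) with the group mean (bars). The KO points lie above the WT points for the 8 genes that rose, and the points of Pf4, the gene that fell, overlap.

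Monocytes differed between genotypes in a single called gene, Commd10, of 9842 tested (0.0102%), with 589 at an unadjusted p under 0.05. Sphk1, which makes sphingosine 1-phosphate, had the smallest p among genes lower in KO mice, at 8.02, 7.33, 4.07 and 2.63 CPM in WT and 0.833, 0.842, 1.01 and 0.878 CPM in KO mice, with no overlap and without passing (-2.66 ± 0.47, edgeR adjusted p = 0.0519). With the mixture rule it was called (edgeR adjusted p = 0.0389). Its levels are those of a rare transcript, and Sphk1 was among the 10 leading genes of the early erythroid (CFU-E) gate, whose summed markers in monocytes are given below. Ly6c2, the surface antigen of inflammatory monocytes, read 2450, 2683, 2732 and 2409 CPM in WT and 3241, 3157, 3170 and 3487 CPM in KO mice (0.35 ± 0.12, edgeR adjusted p = 0.596). The KO mice lay above the WT mice for Ly6c2, but the other members of its list of 10 were on either side of 0 (6 above, median 0.082), with S100a6 at -0.23 and Chil3 at 0.73. Of the 10 genes 3 were themselves gate markers, among them Chil3, of the neutrophil gate. The mice did not overlap for 3.41% of all genes tested in monocytes. Cx3cr1, the fractalkine receptor of patrolling monocytes, had a fold of -0.34 (edgeR adjusted p = 0.745).

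Groups of monocyte genes shared a direction without a call. All 12 MHC class I genes lay above 0 (median 0.341, 4 with unadjusted p under 0.05), among them B2m, the light chain, at 909, 984, 925 and 1067 CPM in WT and 1163, 1387, 1170 and 1271 CPM in KO mice (0.36 ± 0.09, edgeR adjusted p = 0.473). Of 15 interferon response genes 13 lay above 0, with a median of 0.613 and Oasl2 at 1.90 and Usp18 at 1.55. Of 81 ribosomal protein genes 80 lay above 0 with a median of 0.187 and 51 at an unadjusted p under 0.05, while all 20 genes of G2M and mitosis lay below 0 with a median of -0.217. Over all genes 51.0% lay above 0, with a median of 0.004. These directions were not particular to monocytes. Ribosomal protein genes lay above 0 for 78 of 81 in erythroid cells, 73 of 80 in DC and 66 of 81 in basophils, but for 24 of 81 in neutrophils. MHC class I genes did so for 12 of 12 in erythroid cells and 9 of 9 in neutrophils. Genes of G2M and mitosis lay below 0 for 16 of 20 in erythroid cells and in DC. Receptors for growth factors were mixed, with Flt3 at 0.47 and Csf2ra at -0.24, and 6 of 11 lay above 0.

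Genes of the IL1 pathway lay mostly below 0 in KO monocytes, with none called. Il1b, the cytokine given to these mice, read 11.5, 9.53, 1.57 and 3.94 CPM in WT and 0.833, 0.842, 3.53 and 0.439 CPM in KO mice, which overlapped (-2.24 ± 0.80, edgeR adjusted p = 0.616). Of 16 genes of the pathway and its NF-kB feedback 3 lay above 0, with a median of -0.165 and Irak4, a kinase below the receptor, at -0.34. Of 20 AP-1 and immediate early genes 6 lay above 0 (median -0.16), with Dusp6 at -0.84 and Fosl2 at -0.16. Genes of DNA methylation and demethylation showed no call, with Tet1 at 0.60 and the maintenance methyltransferase Dnmt1 at 0.17. Markers of early erythroid (CFU-E) cells in the monocyte gate ran from 48.5 to 113 CPM in WT and from 24.4 to 56.3 CPM in KO mice, and those of erythroblasts from 72.6 to 277 and from 17.7 to 112 CPM. Per 10000 UMIs, the median cell held 50.1 UMIs of granulocyte progenitor markers in KO and 33.0 in WT mice. Multipotent progenitor markers read 41.2 and 32.6, and the gate's own markers 32.3 and 36.0. Of 8 primary granule genes 7 lay above 0, with a median of 0.435 and 5 at an unadjusted p under 0.05. Of that list 7 genes are themselves granulocyte progenitor markers, which competed for cells with the monocyte gate. The part of all these markers in the monocyte values was not tested. Without WT mouse 3 there were 3 calls, without WT mouse 4 there were 2, and with the mixture rule there were 3 (0.0303%).

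In basophils of KO mice 15 genes rose and 5 fell of 8351 tested (0.239%), and 899 were at an unadjusted p under 0.05. The balance of directions turned with other settings, to 35 higher and 40 lower with the pool number as a block, 20 and 25 without WT mouse 1, 5 and 7 without KO mouse 2, and 105 and 142 with no filter on low counts. The genes that rose were Pdzd4 (a PDZ-domain protein), Dpp4 (CD26, a protease that trims chemokines), Igfbp7 (a secreted binding protein of insulin-like growth factors), C3ar1 (the receptor of complement C3a), Ptger3 (a prostaglandin E2 receptor), P2rx7 (an ATP-gated channel), Lilrb4a (an inhibitory receptor), Cd84 (a SLAM-family receptor), the chemokine Ccl6, the calcium-store channel Itpr2, Arhgap4, Perp, Fyb, Commd10 and Cyp11a1, which starts steroid synthesis and is itself a basophil gate marker.

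Dpp4 read 31.5, 20.1, 29.8 and 28.3 CPM in WT and 52.2, 55.6, 61.5 and 51.8 CPM in KO mice (0.99 ± 0.16, edgeR adjusted p = 0.0034, n = 4 mice a group). Fyb read 178.0, 197.6, 167.8 and 124.6 CPM in WT and 240.5, 355.1, 326.3 and 316.7 CPM in KO mice (0.91 ± 0.14, edgeR adjusted p = 0.00275). Both genes were apart between genotypes in all 8 mice. Pdzd4 had 15.1, 10.0, 13.5 and 9.42 CPM in WT and 17.4, 34.4, 36.0 and 42.6 CPM in KO mice (1.47 ± 0.22, edgeR adjusted p = 0.00275), with KO mouse 1 just above the WT mice. Pdzd4 lies on the X chromosome, and the WT group held 3 male and 1 female mice and the KO group 2 of each by their Xist and Y-linked transcripts; with sex as a term its log2 fold was 1.42 (edgeR adjusted p = 0.0104). Igfbp7 had 19.1, 16.1, 15.9 and 3.14 CPM in WT and 26.1, 29.7, 43.0 and 49.1 CPM in KO mice (1.39 ± 0.26, edgeR adjusted p = 0.0229). Ptger3 rose by 0.77, P2rx7 by 0.88, Lilrb4a by 1.05, Cd84 by 0.65, Itpr2 by 0.75, Arhgap4 by 0.55, Perp by 1.04 and Cyp11a1 by 0.70 on the log2 scale. Of the 20 called genes the mice did not overlap for 16, 12 higher and 4 lower in KO, as for 5.34% of all genes tested in basophils.

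Chemokines were less even among the KO mice. Ccl6 read 70.5, 93.3, 78.9 and 84.8 CPM in WT and 66.6, 293.5, 425.5 and 156.5 CPM in KO mice (1.64 ± 0.32, edgeR adjusted p = 0.0311), so KO mouse 1 lay below all WT mice and the other 3 above them. Ccl9, close by on chromosome 11, read 149.3, 84.3, 126.4 and 113.0 CPM in WT and 197.0, 327.1, 282.0 and 168.9 CPM in KO mice, all above WT but short of the threshold (1.05 ± 0.23, edgeR adjusted p = 0.0554). C3ar1 also overlapped, at 6.37, 7.02, 6.57 and 11.5 CPM against 8.69, 35.3, 25.9 and 15.6 CPM (1.73 ± 0.32, edgeR adjusted p = 0.0229). In the vehicle mice the fold was -0.68 for Ccl6, -0.09 for Ccl9, -0.17 for C3ar1 and -0.46 for Ptger3, and the unadjusted edgeR p for the difference between treatments was 0.000168, 0.0032, 0.003 and 0.000172, none past adjustment. Of 11 cytokine and chemokine genes tested 9 lay above 0 with a median of 0.284 and 1 called. With the mixture rule 2 of the 11 were called higher and the median was 0.363. KO mouse 1 gave 44 basophils by the stringent hashtag call, against 444 to 715 in the other KO mice.

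The genes that fell in KO basophils were Hoxa9 (a homeobox factor of progenitors), Odc1 (the first enzyme of polyamine synthesis), St3gal5 (the synthase of ganglioside GM3), Slc14a1 (a urea transporter of red cells) and Rhd (a blood group protein and erythroid gate marker). Hoxa9 was tight within each group, at 26.7, 31.1, 27.1 and 29.3 CPM in WT and 8.69, 14.9, 11.8 and 15.6 CPM in KO mice (-1.05 ± 0.20, edgeR adjusted p = 0.0229). Odc1 fell from 121.8, 96.3, 112.9 and 147.6 CPM to 72.4, 80.3, 74.3 and 61.0 CPM (-0.72 ± 0.14, edgeR adjusted p = 0.0229). St3gal5 fell from 12.3, 14.04, 25.5 and 26.2 CPM to 11.6, 6.37, 5.38 and 5.94 CPM (-1.63 ± 0.31, edgeR adjusted p = 0.0253). KO mouse 1 sat next to the lowest WT mouse for St3gal5, and the groups were otherwise far apart. Slc14a1 fell by 1.32 ± 0.27 on the log2 scale (edgeR adjusted p = 0.0347) and Rhd by 1.71 ± 0.36 (edgeR adjusted p = 0.0393), the latter with overlapping mice.

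Of 13 basophil and mast cell effector genes (5 of the list are gate markers) 12 lay above 0 and 9 had an unadjusted p under 0.05, with a median of 0.352 against -0.0043 over all genes and none called. Among them were Alox5 (the first enzyme of leukotriene synthesis, 0.44), the degranulation marker Cd63 (0.44) and Il4 (0.56), each at an edgeR adjusted p of 0.289 or above. Heat shock chaperones were split, with Hspa1a at 1.32 and Hspd1 at -0.51, neither called, and 4 of 11 above 0. Markers of CFU-E cells in the basophil gate ran from 319 to 574 CPM in WT and from 62.3 to 412 CPM in KO mice, with 6 of 7 at an unadjusted p under 0.05 and lower in KO and 1, Rhd, called. Neutrophil markers ran from 231 to 383 CPM in WT and from 128 to 261 CPM in KO mice, and the basophil markers themselves from 22970 to 37030 and from 30720 to 44690 CPM. Their part in the result was not tested. There were 45 calls without WT mouse 1, 7 without WT mouse 2, 4 without WT mouse 3, 6 without WT mouse 4, 12 without KO mouse 2 and 4 without KO mouse 3, and Pdzd4 kept its call in each of these fits. The mixture rule gave 27 calls (0.309%), 12 of them among the 20.

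**Figure D3:**
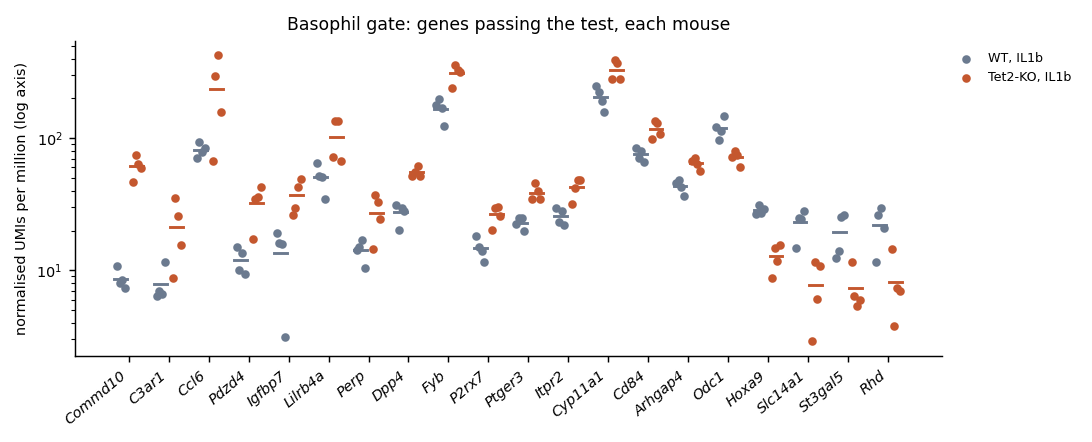
Genes called in basophils of IL1β mice, in CPM on a log axis for each WT and KO mouse (points) with the group mean (bars). KO and WT points are apart for 16 of the 20 genes, with Commd10 the widest gap, and overlap for C3ar1, Ccl6, Perp and Rhd.

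No gene was called in megakaryocytes by edgeR or by DESeq2, and 338 of the 8122 genes tested (0% called) had an unadjusted edgeR p under 0.05. Irf8, a transcription factor of monocytes and dendritic cells, had the smallest p of all, at 19.1, 19.0, 13.5 and 15.5 CPM in WT and 4.57, 1.39, 5.22 and 2.64 CPM in KO mice, apart at low levels (-2.53 ± 0.53, edgeR adjusted p = 0.991). The mice were apart for 3.51% of all genes tested in megakaryocytes. Sri, the calcium-binding protein sorcin, was higher at 98.5, 70.6, 83.5 and 66.5 CPM in WT and 115.4, 135.0, 139.2 and 112.0 CPM in KO mice (0.62 ± 0.15, edgeR adjusted p = 0.991). All 16 platelet function genes tested (7 of the list are gate markers) lay above 0, with a median of 0.630 against 0.023 over all genes, and none had an unadjusted p under 0.05. Gp9, a subunit of the von Willebrand factor receptor, ran from 34.0 to 132.0 CPM in WT and from 75.1 to 309.9 CPM in KO mice, and the gate's own markers from 15500 to 22210 and from 11180 to 37300 CPM. In the median cell those markers were lower in KO, at 90.5 UMIs per 10000 against 121.4 in WT mice. Primary granule genes had 0 of 7 above 0 (median -0.466) and basophil effector genes 3 of 10 (median -0.522). Ly6c-high monocyte genes had 2 of 8 (median -0.497), while secondary and later neutrophil granule genes had 7 of 8 (median 0.495). Each of these lists holds markers of other gates, and their part in the platelet values was not tested. All 12 MHC class I genes lay above 0 (median 0.316) and all 20 genes of G2M and mitosis below 0 (median -0.244). Rpl10 led the ribosomal proteins, of which 70 of 81 lay above 0, at 507.8, 472.5, 342.0 and 377.3 CPM in WT and 557.4, 561.3, 640.4 and 618.2 CPM in KO mice (0.48 ± 0.13, edgeR adjusted p = 0.991).

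Erythroid cells differed in 1 of 10009 genes tested (0.00999%), with 711 at an unadjusted p under 0.05. Col5a1, which encodes a chain of type V collagen, fell in KO mice from 53.9, 55.3, 42.1 and 42.3 CPM to 20.9, 23.1, 25.2 and 23.4 CPM (-1.03 ± 0.17, edgeR adjusted p = 0.0476). The KO mice were tightly grouped below all WT mice, in a gate where the mice were apart for 4.37% of all genes tested. The vehicle fold was -1.08 (edgeR adjusted p = 0.00629). The call was lost on leaving out any mouse except WT mouse 3, and the log2 fold stayed between -1.20 and -0.82 over the 18 alternatives. The mixture rule, which assigned 80.8% of WT and 93.5% of KO erythroid cells, called 12 genes (0.112%), Col5a1 and Commd10 among them. Ifi27, an interferon-induced gene, had the smallest p among genes higher in KO, at 23.9, 20.5, 18.9 and 17.4 CPM in WT and 32.3, 33.3, 37.0 and 43.8 CPM in KO mice (0.87 ± 0.17, edgeR adjusted p = 0.109).

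No globin or haem synthesis gene was called. Hba-a1 read 1190, 2031, 1503 and 3234 CPM in WT and 1358, 1394, 1677 and 990 CPM in KO mice, overlapping and highest in WT mouse 4 (-0.55 ± 0.24, edgeR adjusted p = 0.67). Of 13 globin and haem synthesis genes (5 of the list, Hba-a1 among them, placed cells in the erythroid gate) 2 lay above 0 (median -0.159), and of 14 erythroid regulators (6 of them gate markers of this or another list) 7 did, with Tal1 at -0.21. All 18 AP-1 and immediate early genes lay below 0 (median -0.683), with the transcription factor Klf2 at -1.61 and Fosl2 at -1.23, and 11 of 12 interferon response genes lay above 0 (median 0.572), with Irf7 at 1.03 and Bst2 at 0.61, none called in either list. Of S phase genes 3 of 20 lay above 0, and of respiratory chain genes 64 of 82, led by Ndufa1 at 0.31. Mice differed in stage: CFU-E cells made 80.8%, 70.7%, 74.9% and 32.1% of the erythroid cells of the WT mice and 74.1%, 83.0%, 77.8% and 81.9% of those of the KO mice, so WT mouse 4 held mostly erythroblasts. Within erythroblasts alone both the globin and the S phase tallies turned, with 13 of 13 globin and haem synthesis genes above 0 (median 0.258, 4 at an unadjusted p under 0.05) and 16 of 20 S phase genes (median 0.099). Within CFU-E cells 2 of 12 and 5 of 20 lay above 0, and no gene of either list was called at either stage.

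Fitted alone, CFU-E cells had 5 genes that fell in KO mice of 9610 tested (0.052%) and none that rose. These were Col5a1 (-1.12), the epoxide hydrolase Ephx2 (-1.20), the calcium-binding S100a6 (-2.43), Gm5483 (-5.88) and Retnlg (-3.04), the latter a transcript of neutrophils. Retnlg read 182.9, 377.5, 146.4 and 86.9 CPM in WT and 11.9, 39.3, 31.2 and 8.20 CPM in KO mice. Neutrophil markers in the erythroid gate ran from 119 to 683 CPM in WT and from 29.6 to 82.7 CPM in KO mice and basophil markers from 251 to 1358 and from 28.2 to 241 CPM. Their part in the erythroid values was not tested. Of 11 secondary and later neutrophil granule genes tested in the CFU-E gate 9 lay below 0, with a median of -1.923 and 8 at an unadjusted p under 0.05. Retnlg, 1 of that list, thus read lower in the CFU-E gate of KO mice and higher in KO neutrophils. In erythroblasts 1 gene of 7846 rose (0.0127%), the fatty acid-binding Fabp5 (1.98 ± 0.33, edgeR adjusted p = 0.0295), with overlapping mice and KO mouse 1 left out for having 7 cells.

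In DC no gene of 4375 tested was called by edgeR (0%), 236 had an unadjusted p under 0.05, and DESeq2 called 1. Ifi27l2a came closest, with 165.3, 73.7, 218.1 and 77.2 CPM in WT and 315.3, 284.7, 608.3 and 586.5 CPM in KO mice, the same direction as in neutrophils and with no overlap (1.55 ± 0.33, edgeR adjusted p = 0.403). The mice did not overlap for 2.83% of all genes tested in DC. All 5 interferon response genes tested lay above 0 (median 0.864), including Ifitm3, which blocks viral entry, at 0.86, which turned to -0.4215 with the stricter gate. All 8 MHC class II genes tested (6 of the list of 9 placed cells in the DC gate) lay above 0 (median 0.303), led by H2-Oa, a modulator of peptide loading, at 26.7, 29.5, 42.6 and 44.1 CPM in WT and 83.0, 79.5, 66.1 and 69.7 CPM in KO mice (0.99 ± 0.41, edgeR adjusted p = 0.885), and H2-Eb1 was at 0.40, which turned to -0.0356 with the stricter gate. With the mixture rule the median of the 8 was 0.102. In the median DC the class II gate markers were lower in KO, at 66.3 UMIs per 10000 against 84.6 in WT mice. B2m was 1034, 1165, 989 and 1004 CPM in WT and 1377, 1847, 1653 and 1376 CPM in KO mice (0.59 ± 0.14, edgeR adjusted p = 0.493). L1cam, an X-linked cell adhesion molecule, was at 69.3, 59.0, 95.7 and 132.4 CPM in WT and 49.8, 46.3, 13.2 and 17.4 CPM in KO mice (-1.54 ± 0.40, edgeR adjusted p = 0.493). All 7 primary granule genes lay below 0 with a median of -1.559, and the granulocyte progenitor markers that hold them ran from 1798 to 8722 CPM in WT and from 1519 to 2958 CPM in KO mice. Between 11 and 108 DC per mouse limit these values.

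With the main settings lymphoid cells held the largest number of calls, with 134 genes that rose and 60 that fell of 7040 tested (2.76%). Neutrophils held more with the stricter gate (274 against 196) and without WT mouse 2 (273 against 124). The genes that rose were led by receptors and effectors of natural killer (NK) and T cells. Klrb1a, an NK receptor, read 1.33, 0, 7.57 and 7.99 CPM in WT and 38.1, 34.2, 30.6 and 65.9 CPM in KO mice (3.05 ± 0.57, edgeR adjusted p = 0.00421). The chemokine Ccl5 read 110.5, 148.6, 211.8 and 222.4 CPM in WT and 1047, 1122, 538 and 1168 CPM in KO mice (2.48 ± 0.46, edgeR adjusted p = 0.00405). Gimap3, a GTPase of lymphocyte survival, read 30.6, 17.3, 75.7 and 59.9 CPM in WT and 343.1, 302.5, 168.2 and 239.0 CPM in KO mice (2.47 ± 0.33, edgeR adjusted p = 0.000628). All KO mice lay above all WT mice for each of the 3 genes, which the rule that named them required, and the groups were apart for 7.81% of all genes tested in the lymphoid gate.

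The makeup of the gate differed as well. NK and T cells made 11.1%, 11.5%, 34.4% and 28.2% of the lymphoid cells of the WT mice and 48.7%, 55.5%, 35.9% and 49.6% of those of the KO mice, so the highest WT mouse lay just below the lowest KO mouse, and B and plasma cells made most of the rest. Of the 7 NK and T cell gate markers 6 were called higher in the lymphoid sum, and 4 of 7 CFU-E markers were called lower. Genes that fell were in part of the red cell, such as Add2 (an adducin of the red cell membrane skeleton, -1.88 ± 0.37, edgeR adjusted p = 0.00626) and Tspan33 (a tetraspanin, -1.66 ± 0.38, edgeR adjusted p = 0.0174), together with Myh10, a non-muscle myosin (-1.73 ± 0.43, edgeR adjusted p = 0.027). Of 12 globin and haem synthesis genes 4 were called lower, and the summed CFU-E markers ran from 573 to 877 CPM in WT and from 209 to 436 CPM in KO mice. The number of calls was 102 without KO mouse 1, 55 without KO mouse 2, 116 without KO mouse 4, 117 without WT mouse 1, 124 without WT mouse 2, 208 without WT mouse 3 and 90 without WT mouse 4, and 178 with the mixture rule (2.56%). Because the makeup moved with the genotype, NK and T cells and B and plasma cells were also fitted on their own.

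Within NK and T cells 29 genes rose and 2 fell in KO mice of 3991 tested (0.777%), and 21 of these 31 genes were also called in the whole lymphoid gate. Gimap3 read 178.2, 153.5, 209.0 and 216.9 CPM in WT and 953.6, 601.7, 514.5 and 528.5 CPM in KO mice (1.72 ± 0.22, edgeR adjusted p = 0.000257). Ccl5 read 807, 1320, 644 and 918 CPM in WT and 2999, 2272, 1689 and 2636 CPM in KO mice (1.43 ± 0.21, edgeR adjusted p = 0.00104). Il2rb, the receptor chain shared by IL2 and IL15, read 125.8, 214.9, 261.3 and 261.4 CPM in WT and 723.8, 536.3, 533.9 and 485.0 CPM in KO mice (1.35 ± 0.21, edgeR adjusted p = 0.00154). The 3 genes, picked from the calls, kept the mice of the genotypes fully apart, which was so for 7.97% of all genes tested in these cells. The vehicle folds, with WT vehicle mouse 2 left out for too few cells, were 0.15 for Gimap3, -0.10 for Ccl5 and 0.27 for Il2rb. The unadjusted edgeR p for the difference between treatments was 6.54e-05, 3.23e-05 and 0.0022, none past adjustment.

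Other genes that rose in NK and T cells, named after their values were seen, included the interferon gamma receptor chain Ifngr1 (1.04 ± 0.20), the feedback inhibitor Socs1 (2.01 ± 0.48) and the chemokine Xcl1 (1.25 ± 0.25). The MHC class I genes H2-D1 (0.80 ± 0.18) and H2-Q7 (0.97 ± 0.22) rose, and 11 of 12 genes of that list lay above 0 with a median of 0.508 against 0.0215 over all genes. Also higher were Klrb1a (2.11), Cd7 (1.40), Cd37 (1.59), Cd52 (0.76), Hopx (1.78), Slfn2 (1.23), Serpina3g (1.54) and the cyclin Ccnd2 (1.00). All 8 genes of the Gimap family, which lie together on chromosome 6, had a fold above 0 in NK and T cells (median 0.863), and Gimap3, Gimap4 and Gimap6 were called. Gimap6 read 115.3, 30.7, 133.5 and 189.1 CPM in WT and 436.6, 287.1, 271.8 and 223.8 CPM in KO mice (1.15 ± 0.26, edgeR adjusted p = 0.0372), and in the whole lymphoid gate 7 of the 8 Gimap genes were called.

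Genes of cell division pointed the other way in NK and T cells. Top2a, the topoisomerase of dividing cells, fell from 629, 1351, 1080 and 1163 CPM in WT to 276, 574, 592 and 497 CPM in KO mice (-1.10 ± 0.24, edgeR adjusted p = 0.0313), every KO mouse below every WT mouse. All 18 G2M and mitosis genes tested lay below 0, with a median of -0.784, 12 at an unadjusted p under 0.05 and Top2a the 1 called, and 17 of 18 S phase genes lay below 0 (median -0.433). Cenpf was at -1.16, Tpx2 at -1.04 and Mki67 at -0.80. Hbb-bs, a globin and erythroblast gate marker, was the other gene that fell (-3.12 ± 0.62, edgeR adjusted p = 0.0193). Summed basophil markers in the NK and T cell gate ran from 947 to 7702 CPM in WT and from 83.6 to 1062 CPM in KO mice, those of granulocyte progenitors from 1392 to 7389 and from 2393 to 11980 CPM, and those of the gate itself from 1601 to 2702 and from 3079 to 3438 CPM. Their part in the result was not tested. WT mouse 2 held 10 NK and T cells, the fewest, and there were 17 calls without it, 4 without WT mouse 3, 10 without WT mouse 4, 8 without KO mouse 1 and 14 without KO mouse 4.

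**Figure D4:**
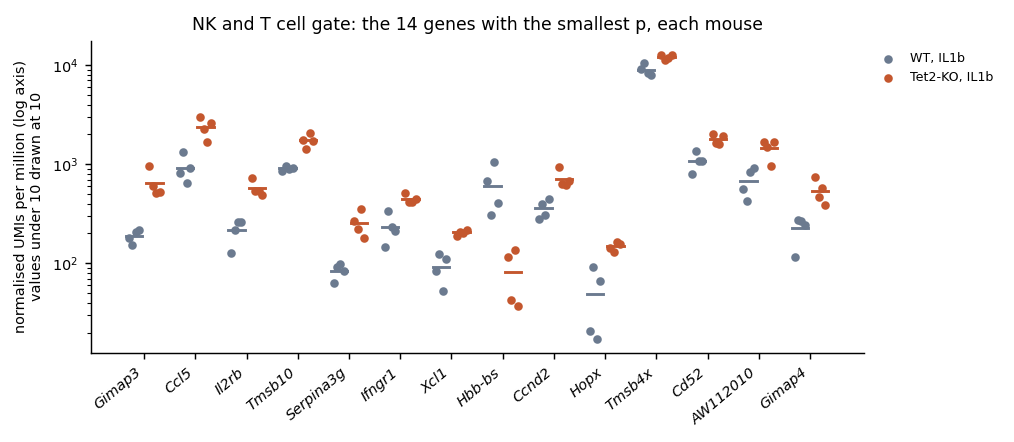
The 14 genes with the smallest p in NK and T cells of IL1β mice, in CPM on a log axis for each WT and KO mouse (points) with the group mean (bars). Of the 14 genes with the smallest p, KO points lie above WT points for 13 and below them for Hbb-bs; the groups were apart for 7.97% of all genes tested in these cells.

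B and plasma cells had 11 genes that rose and 4 that fell of 4134 tested (0.363%), and the mice did not overlap for any of the 15, as for 5.30% of all genes tested there. Ccr10, the chemokine receptor of antibody-secreting cells, read 23.2, 13.4, 51.4 and 9.77 CPM in WT and 107.6, 203.3, 154.5 and 107.2 CPM in KO mice (2.62 ± 0.45, edgeR adjusted p = 0.015). Ptprcap, a partner of CD45 at the membrane, read 102.8, 98.2, 102.9 and 84.0 CPM in WT and 181.6, 231.6, 191.9 and 208.7 CPM in KO mice (1.07 ± 0.18, edgeR adjusted p = 0.015). The survival factor Bcl2 (1.10 ± 0.25), the co-stimulatory receptor Cd28 (1.15 ± 0.25), Gimap1 (1.17 ± 0.23), Glipr1 (1.37 ± 0.27), Myl4 (1.84 ± 0.34), Cited2 (1.11 ± 0.24) and Fchsd2 (1.38 ± 0.27) also rose. Genes of DNA replication, Dtl (-1.15 ± 0.25) and Orc2 (-1.50 ± 0.34), the metallothionein Mt2 (-1.41 ± 0.32) and the erythroid gate marker Ermap (-2.002 ± 0.44) fell. There were 0 calls without KO mouse 2, WT mouse 1 or WT mouse 4, 2 without KO mouse 1, 11 without WT mouse 3 or KO mouse 4, and 25 without KO mouse 3. The CFU-E markers ran from 477 to 834 CPM in WT and from 152 to 539 CPM in KO mice, and their part was not tested.

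Across the lineages, B2m had a positive fold in KO cells of 6 lineages, at 0.34 in neutrophils, 0.36 in monocytes, 0.24 in basophils, 0.38 in megakaryocytes, 0.28 in erythroid cells and 0.59 in DC, and a negative one, -0.24, in the lymphoid sum, none called. Within that sum it was 0.49 in NK and T cells, with every KO mouse above every WT mouse (edgeR adjusted p = 0.0714), and -0.15 in B and plasma cells. Whether a genotype difference itself differed between IL1β and vehicle mice was tested as an interaction, and edgeR called 0 genes in each lineage (0%), with between 212 and 527 genes at an unadjusted p under 0.05. DESeq2 called 1 gene in monocytes, 1 in DC, 4 in lymphoid cells and none in the other 4 lineages. Within the lymphoid gate DESeq2 called 12 genes in NK and T cells, 10 higher and 2 lower, where it gave an adjusted p for 586 of 3990 genes, and 2 in B and plasma cells. There edgeR called 0, with 359 genes in NK and T cells and 200 in B and plasma cells at an unadjusted p under 0.05. With the pool number as a block edgeR called 1 gene in each. Without IL1β, edgeR called 2 genes between genotypes in neutrophils, 3 in monocytes, 1 in basophils, 3 in erythroid cells, 1 in DC and none in megakaryocytes or lymphoid cells. By edgeR, a call with IL1β and none with vehicle, as for most genes above, is therefore not shown to depend on IL1β, and in NK and T cells the outcome differed between the tools.

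The share of each mouse's assigned cells that fell in a lineage did not differ past the threshold in any of the 7 lineages (two-sided exact permutation test over 4 KO and 4 WT mice, 70 arrangements). The smallest p this design allows is 0.0286, or 0.2 after adjustment when a single lineage reaches it, so no lineage could have passed by itself. Monocytes came closest, at 8.77%, 10.7%, 11.2% and 7.95% of cells in WT and 8.20%, 7.89%, 6.35% and 6.79% in KO mice. The means were 9.66% ± 1.55 and 7.31% ± 0.883 (SD, n = 4), lower in KO by 2.35 percentage points, with overlapping mice (exact p = 0.0571, adjusted p = 0.4). Basophils made 11.1% ± 0.835 in WT and 10.4% ± 5.60 in KO mice, the latter from 3.09% to 16.4%. Neutrophils made 6.01% ± 3.54 in WT and 5.50% ± 1.58 in KO mice, erythroid cells 6.96% ± 2.21 and 5.60% ± 2.57, and megakaryocytes 3.50% ± 1.72 and 2.76% ± 0.670. DC made 1.31% ± 0.577 and 0.780% ± 0.153 (exact p = 0.143, adjusted p = 0.5), and lymphoid cells 5.38% ± 4.92 and 5.12% ± 4.07.

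How many cells the hashtags assigned bears on these shares. The stringent call tied 1426 cells to KO mouse 1 and 1421 to WT mouse 4, against 4086 and 7595 by the mixture rule, and the 2 highest lymphoid shares, 12.7% in WT mouse 4 and 10.8% in KO mouse 1, came from these mice. With the mixture rule the lymphoid means became 2.39% in WT and 3.49% in KO mice, the neutrophil means 4.43% and 5.35%, and the monocyte means 8.59% and 6.53% with the same exact p of 0.0571. The erythroid means moved most in size, to 15.94% in WT and 13.02% in KO mice. Of the 7 lineages, neutrophils, basophils and lymphoid cells thus turned direction with the rule and monocytes, megakaryocytes, erythroid cells and DC did not.

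**Figure D5:**
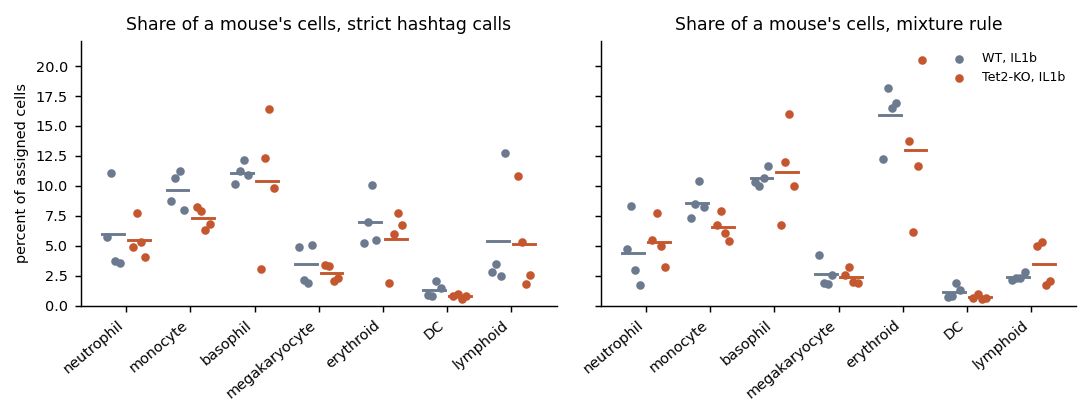
Share of each IL1β mouse's assigned cells, in percent, in the 7 committed lineages, with hashtags called by the stringent rule (left) and by the mixture rule (right); points are mice and bars are group means. Monocyte shares are lower on average in KO mice under both rules, while the lymphoid, neutrophil and basophil means change order between the rules.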

How the data were processed

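Lineage-depleted marrow of 16 mice was measured by droplet single-cell RNA sequencing in 8 libraries. The deposited files hold raw UMI counts per gene and per hashtag, one matrix a library; per the labels the authors used Cell Ranger 3.1.0, the mm10 genome and Seurat 3.2.3. No sample column was left unassigned (0 columns). Kept cells had at least 750 genes and at most 10% mitochondrial UMIs. Hashtags were called with HTODemux (Seurat 5.3.0), cells with both hashtags were removed, and no other doublet caller was run. A cell went to the marker list with the highest score if at least 3 markers were detected, and mice with fewer than 10 cells in a gate were left out.

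UMIs were summed per mouse and lineage and tested with edgeR 4.0.16 in R 4.3.3 (filterByExpr, TMM scaling, quasi-likelihood test, Benjamini-Hochberg adjustment, all 4 groups in a fit), checked against DESeq2 1.42.0 and tested on simulated data. CPM are scaled by TMM, except summed marker lists, which are plain CPM of the summed UMIs. Depth was 334956 to 3035562 UMIs per mouse in basophils and 68281 to 396980 in DC, and counting precision follows it. Shares were compared by exact permutation (SciPy 1.17.1). Alternatives were RLE scaling, no filter on low counts, other hashtag rules, pools as replicates, a stricter gate, only the IL1β mice, the pool number as a block, sex as a term, and each mouse left out; the mixture rule for hashtags and the fits within subgates were added after seeing the data.

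In each lineage the text names at most 3 genes per direction, taken from the called genes by size of fold change, provided that their mice did not overlap and that they were neither gate markers nor Xist, Tsix or Y-linked (other X-linked genes were kept). Where none qualified, the gene of smallest p stands in as a value that did not pass. Genes called in 3 or more lineages, Tet2, Gimap6 and Commd10, and the 2 list members with the smallest p were added. Other called genes, B2m, and list members named as examples were chosen after their values were seen. The lineages, gene lists and tests were chosen with earlier results of these data known. Promoter sequences are from RefSeq on GRCm38.p6. 6 listed markers were not used here.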

Additional observations from a re-analysis of the deposited data

Results flagged for a closer look

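In groups of 4 mice, a mouse was singled out when its gap to the nearest other mouse, divided by the group's range, was above Dixon's critical value. Of 180 groups tested 6 were singled out, and chance alone gives about 1 in 20, or 9.0. Commd10 in monocytes was lowest in WT mouse 4, at 5.25 CPM with the next mouse at 13.9 CPM (ratio 0.927). St3gal5 in basophils was highest in KO mouse 1, at 11.6 CPM with the next at 6.37 CPM (0.84). Tet2 in megakaryocytes was highest in KO mouse 4, at 46.1 CPM with the next at 38.3 CPM (0.93). Il1b in monocytes was highest in KO mouse 3, at 3.53 CPM with the next at 0.842 CPM (0.87). Tet1 in monocytes was highest in WT mouse 4, at 7.88 CPM with the next at 5.45 CPM (0.886). The share of lymphoid cells was highest in WT mouse 4, at 12.7% of its assigned cells with the next mouse at 3.50% (0.901). Of the 6, 3 are WT mouse 4, which shares a pool with WT mouse 3 and had 1421 cells assigned by the stringent hashtag rule.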

How the results depend on the processing

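For the 24 called values of genes named by the rule in the 7 lineages, 415 alternative values were computed; 0 changed direction, 324 stayed called and 91 did not, and pools as replicates lost the most. Counts of called genes moved far more. Neutrophils (9) gave 18 with DESeq2, which gave an adjusted p for 1227 of 7378 genes. They gave 233 with no filter on low counts, 3 with the hashtag ratio rule, 171 with the mixture rule, 0 with pools as replicates and 274 with the stricter gate. Monocytes (1) gave 33 with no filter, 3 with the mixture rule and 2 with only the IL1β mice. Basophils (20) gave 247 with no filter, 4 with the ratio rule, 6 with pools, and 5 each with the stricter gate and with only the IL1β mice. Erythroid cells (1) gave 6 with DESeq2, 59 with no filter, 4 with the ratio rule, 12 with the mixture rule, 0 with the stricter gate, 3 with sex as a term and 5 in CFU-E cells. DC (0) gave 1 with DESeq2, 38 with no filter, and 2 each with pools and with only the IL1β mice. Lymphoid cells (194) gave 406 with no filter, 123 with the ratio rule, 90 with pools, 31 in NK and T cells and 15 in B and plasma cells. NK and T cells (31) gave 50 with DESeq2, which gave an adjusted p for 1127 of 3990 genes. The interaction gave 1, 1 and 4 with DESeq2 in monocytes, DC and lymphoid cells, 12 in NK and T cells and 2 in B and plasma cells. The cause of these moves was not tested. The mixture rule shared 12 of the 20 basophil and 162 of the 194 lymphoid calls.

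Leaving out each IL1β mouse gave 0 to 273 calls in neutrophils, 1 to 3 in monocytes, 4 to 45 in basophils, 0 to 3 in erythroid cells, 55 to 232 in lymphoid cells, 4 to 44 in NK and T cells, 0 to 25 in B and plasma cells, and 0 in megakaryocytes and DC. The log2 ratio of mean shares, KO over WT, then ran from -0.3398 to 0.3496 for neutrophils, -0.4846 to -0.3209 for monocytes, -0.4018 to 0.2114 for basophils, -0.5507 to -0.1082 for megakaryocytes, -0.5144 to -0.0264 for erythroid cells, -0.9056 to -0.4416 for DC and -0.7381 to 0.8055 for lymphoid cells. Shares turned direction with the mixture rule (neutrophil 0.2741, basophil 0.0697, lymphoid 0.5455), the stricter gate (neutrophil 0.0965, basophil 0.1193), pools (neutrophil 0.4068, basophil 0.0799, lymphoid 0.5878) and the ratio rule (megakaryocyte 0.0035, lymphoid 1.7603). Uncalled genes that turned were, with the stricter gate, Tet2 in erythroid cells (-0.1994) and DC (-0.0399), Elane in neutrophils (-0.4537), and H2-Eb1 (-0.0356) and Ifitm3 (-0.4215) in DC; Tet2 in erythroid cells also turned with sex as a term (-0.0351), and ran from -0.0658 to 0.1185 on leaving out each mouse.

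Pools of the groups share only a number. Their deviations correlated between -0.091 and 0.219, and the pool number as a replicate block gave 55 calls in neutrophils, 2 in monocytes, 75 in basophils and 4 in erythroid cells, and kept all 24 called named values. DC, with 11 to 108 cells a mouse, limit what could be detected. Lymphoid progenitors and plasmacytoid DC could not be fitted.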
